A study of Mus musculus with 6 samples.

Results

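Kinesins are motor proteins that walk along microtubules, and the genes described here are those of the mouse kinesin family in B cells with and without the arginine methyltransferase Prmt1. Members were every gene of the exon count table whose symbol begins with Kif or Kifc followed by a digit, which gave 44 of the 39017 genes in the table. Of these, 14 were placed with the mitotic kinesins, 15 with the transport kinesins, and 15 with neither, a remainder that holds motors of cilia, motors with mixed roles and pseudogenes. A kinesin motor domain hydrolyses ATP to move along a microtubule or, in some families, to take the microtubule apart at its end. Mitotic kinesins build the spindle, move chromosomes and form the midzone at which the cell divides, and in proliferating cells their transcripts accumulate late in the cell cycle. Transport kinesins carry vesicles, mitochondria and endosomes in cycling and resting cells alike, usually by way of adaptor proteins.

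The cells were induced germinal-centre-like B cells (iGBs), which are splenic B cells of C57BL6/J mice grown on 40LB feeder cells, a fibroblast line that provides CD40L and BAFF, with IL-4. The labels give IL-4 at 5 ng/ml, where the study's methods state a lower dose, and 3.5 days of culture, after which the feeders were removed with anti-H2K magnetic beads. Control iGBs came from 3 Cg1-cre mice and Prmt1-null iGBs from 3 Cg1-cre Prmt1f/f mice, and every mouse gave 1 library. Each genotype held 2 females and 1 male. The Cre was therefore present in both groups, and it is made from the Cγ1 locus, so that Prmt1 is deleted only after the cells are activated and not necessarily in each cell. Ages are not given in the labels.

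Libraries held between 45343250 and 62774232 counts on genes, and normalized counts are counts scaled by edgeR's TMM factors to a common library size. Prmt1, counted over all its exons, had normalized counts of 3964, 3924 and 4838 in Control 1 to 3 and of 1745, 1478 and 1477 in Prmt1-null 1 to 3, so each library matched its label. Its log2 fold change was −1.44 ± 0.095 (SE, adjusted p = 1.11e-05), and 36.9% of the Control level remained. Here and below, a log2 fold change is Prmt1-null over Control, and adjusted p-values are those of the quasi-likelihood fit of edgeR, adjusted by Benjamini-Hochberg over 18268 genes. A gene was called when its adjusted p was under 0.05 and its mean normalized count was over 100. Called in this way were 1.18% of all tested genes, 0.58% as higher and 0.602% as lower in Prmt1-null iGBs. Over all tested genes, the log2 fold change had a median of −0.00082.

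The promoters of the mitotic kinesins share short sequence elements that the choice of members did not use, and these are shown first as background to the classes described below. Many genes of late cell cycle phases carry a cell cycle genes homology region (CHR), whose core is TTTGAA, often downstream of CCAAT boxes. RefSeq promoters (GRCm38.p6, from 250 bases before to 50 bases after the start) were at hand for 25 of the 35 kinesin genes that passed the filter on low counts. On either strand, TTTGAA was found in 11 of 12 mitotic kinesin promoters (91.7%), in 0 of 8 transport kinesin promoters and in 1 of 5 of the others, against 14.6% of 10254 tested genes and 20.2% of all 27025 genes with a promoter. Within 50 bases of the start it was found in 9 of 12 mitotic kinesin promoters (75.0%) and in 3.79% of those of tested genes. The match nearest the start of each of these 9 genes is printed on the strand of the gene, in a window of 30 bases, with capitals for TTTGAA or its reverse complement TTCAAA. The window of Kif20b holds 2 matches, the second directly after the first.
Kif11 (chr19:37376351-37376380, plus strand): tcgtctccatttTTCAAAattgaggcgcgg
Kif15 (chr9:122951050-122951079, plus strand): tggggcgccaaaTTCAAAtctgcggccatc
Kif4 (chrX:100626072-100626101, plus strand): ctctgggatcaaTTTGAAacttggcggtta
Kif20b (chr19:34922353-34922382, plus strand): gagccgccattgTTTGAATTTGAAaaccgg
Kif18b (chr11:102925104-102925133, minus strand): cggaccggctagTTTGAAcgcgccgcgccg
Kif22 (chr7:127042420-127042449, minus strand): gggccccggtaaTTCAAAagagagaagcgg
Kif23 (chr9:61946780-61946809, minus strand): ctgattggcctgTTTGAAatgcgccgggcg
Kifc1 (chr17:33890615-33890644, minus strand): cggaggttgaaaTTCAAAagtggcgggtgt
Kifc5b (chr17:26917108-26917137, plus strand): cggaggttgaaaTTCAAAagtgactggtgt

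The match began 19 bases before the start in Kif11 and Kif15 and 19 bases after it in Kif4. Kif14 and Kif2c had their matches farther upstream, 228 and 103 bases before the RefSeq start, and Kif18a had none in its window. Starts can differ between annotations. GENCODE starts Kif4 at chrX:100625737, Kif14 at chr1:136466343 and Kif2c (minus strand) at chr4:117182639. By GENCODE, the matches of these 3 genes therefore lie downstream of the gene start. CCAAT on either strand was found in 8 of 12 mitotic (66.7%), 3 of 8 transport (37.5%) and 2 of 5 other promoters, against 42.7% of those of tested genes, and CCAAT together with TTTGAA in 8 of 12 mitotic, 0 of 8 transport and 1 of 5 other promoters (Kif26b), against 7.19%. An E2F-type site, searched as TTTCGCGC or TTTGGCGC, was found in the promoters of Kif15 and Kif18a alone among the 25, against 1.72% of tested genes, and in Kif15 it lies beside the CHR core. Upstream windows of 130 bases from 3 genes show the contrast, with capitals for TTTGAA and CCAAT on either strand (ATTGG is the reverse complement of CCAAT). Each window ends before the start that lies farther upstream, that of RefSeq in Kif11 and that of GENCODE in Kif3b and Kif24, where the GENCODE start is 3 and 39 bases upstream of the RefSeq start from which the other distances are counted. Kif11 stands for the mitotic class with both elements, Kif3b for a transport kinesin with a CCAAT box alone, and Kif24 for the called member outside these classes, with 3 CCAAT boxes in this window and no TTTGAA.
Kif11 (chr19:37376252-37376381, plus strand): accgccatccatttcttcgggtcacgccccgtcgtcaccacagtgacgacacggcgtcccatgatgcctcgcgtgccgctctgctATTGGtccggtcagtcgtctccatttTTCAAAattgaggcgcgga
Kif3b (chr2:153291283-153291412, plus strand): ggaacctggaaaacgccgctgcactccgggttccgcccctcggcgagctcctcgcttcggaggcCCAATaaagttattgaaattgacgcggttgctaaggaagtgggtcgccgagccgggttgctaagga
Kif24 (chr4:41464888-41465017, minus strand): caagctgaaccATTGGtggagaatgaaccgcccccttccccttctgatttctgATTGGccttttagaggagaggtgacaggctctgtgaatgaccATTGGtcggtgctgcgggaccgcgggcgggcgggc

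A match to these letters describes the sequence only, and no binding was measured in these libraries.

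**Figure D1:**
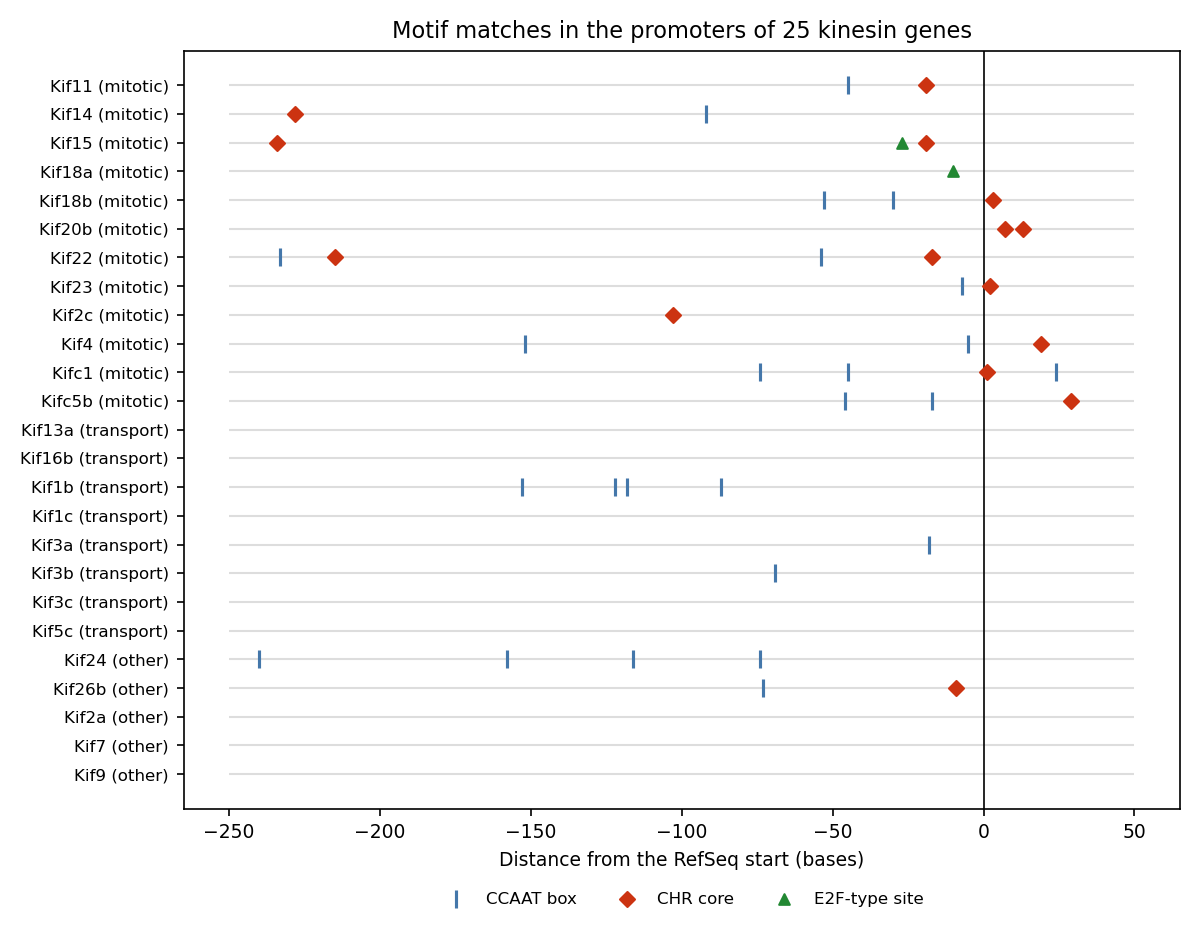
Positions of CCAAT boxes (blue bars), the CHR core (red diamonds) and E2F-type sites (green triangles) in the RefSeq promoters of 25 kinesin genes, by distance in bases of the first matched base from the start, with the class of each gene in brackets. The CHR core was matched in 11 of 12 mitotic and in 0 of 8 transport promoters, and in 9 mitotic promoters it lies within 50 bases of the start.

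Of the 44 members, 35 passed the filter and were tested, namely 13 mitotic, 13 transport and 9 other genes. The 9 that did not pass had at most 10 counts in any library. Kif2b, Kif12 and Kif27 had 0 counts in each library, where 3 counts, taken as the floor of detection, correspond to values between 0.0478 and 0.0662 CPM, that is counts scaled to the library total. Kif6 reached at most 1 count, Kif1a and Kif26a at most 4, Kif17 at most 6, and Kif21a and the pseudogene Kif4-ps at most 10. In levels per length, that is RPKM computed from the counts and the exon length, Kif11 was the highest kinesin in Control iGBs with 31.6 ± 2.16 (SD, n = 3), followed by Kif20a with 22.0 ± 0.285, Kif2a with 16.04 ± 0.926 and Kif5b with 13.6 ± 0.784. The highest 2 were thus mitotic motors, and the most abundant transport kinesin came after them. Summed over the class, the mitotic kinesins had levels per length of 140.07, 137.34 and 129.54 in Control and of 112.41, 111.58 and 115.18 in Prmt1-null iGBs, so the groups did not overlap. The sums of the transport kinesins ran from 31.1 to 33.5 in Control and from 30.5 to 33.8 in Prmt1-null iGBs and did overlap. The sums of the other kinesins, from 35.7 to 36.02 and from 32.3 to 34.5, did not overlap. A gap between the groups in such a sum was not confined to kinesins, and the sums of the partner, dynein and tubulin lists are given with those lists. The mitotic sum was 4.18, 4.28 and 4.16 times the transport sum in Control and 3.56, 3.30 and 3.78 times in Prmt1-null iGBs. For such single values an exact permutation test of 3 against 3 libraries cannot give a two-sided p below 0.1.

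**Figure D2:**
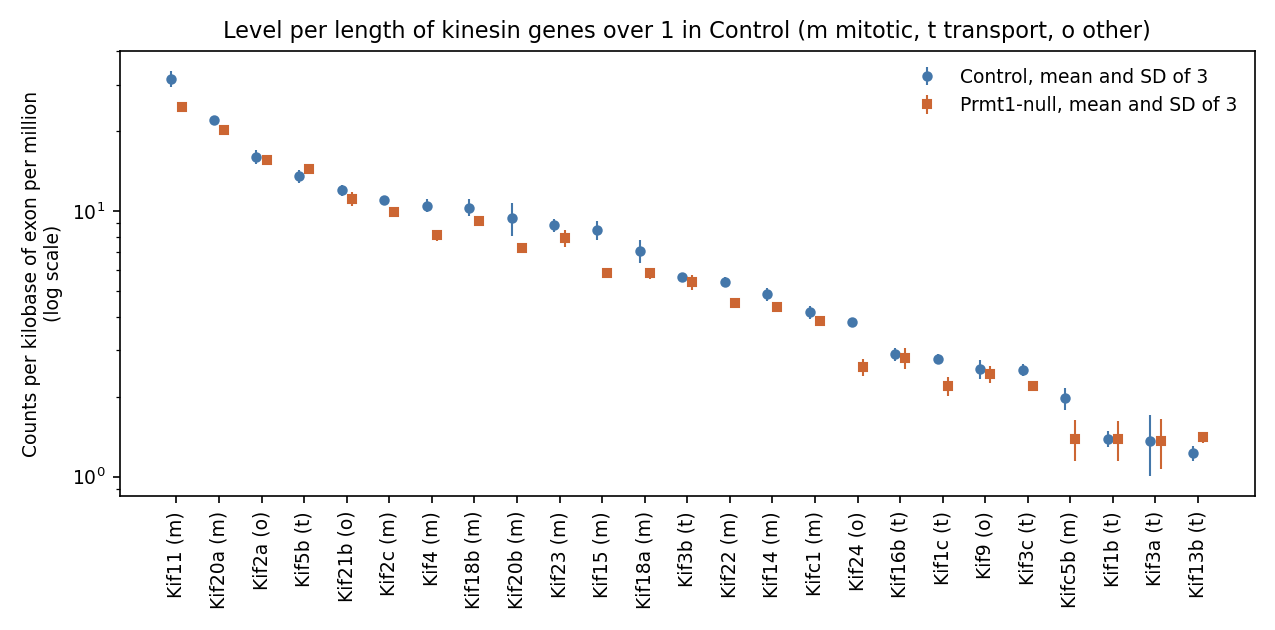
Levels per length (RPKM, log axis) of the kinesin genes above 1 in Control iGBs, in order of the Control level, with means and SD of 3 Control (circles) and 3 Prmt1-null (squares) libraries. Kif11 leads with 31.6 in Control and 24.6 in Prmt1-null iGBs, and Kif15 lies at 8.49 and 5.87.

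Among the 13 tested mitotic kinesins, 3 were called lower in Prmt1-null iGBs (Kif15, Kif11 and Kif4) and 0 higher, against 0.602% and 0.58% of all tested genes. An unadjusted p under 0.05 with a lower level was reached by 10 of the 13, against 7% of all tested genes and 8.89% of the genes with a mean over 100, and by 0 with a higher level, against 6.5% and 7.94%. The 3 Prmt1-null libraries lay below the 3 Control libraries for 11 of the 13, against 9.92% of all tested genes and 11.4% of those with a mean over 100. All 13 log2 fold changes were below 0, from −0.53 to −0.12 with a median of −0.27, against 50.1% of all tested genes below 0. This range depends on the choice of class. Kif2a, which also acts at spindle poles, and the mitotic motor Cenpe were counted outside it, with log2 fold changes of −0.04 and −0.17. In bulk libraries, fewer cells in mitosis and less of a transcript per cell cannot be told apart. Kinesin counts as a whole took 0.1478, 0.1445 and 0.1361% of all counts in Control and 0.1213, 0.1247 and 0.1246% in Prmt1-null iGBs.

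**Figure D3:**
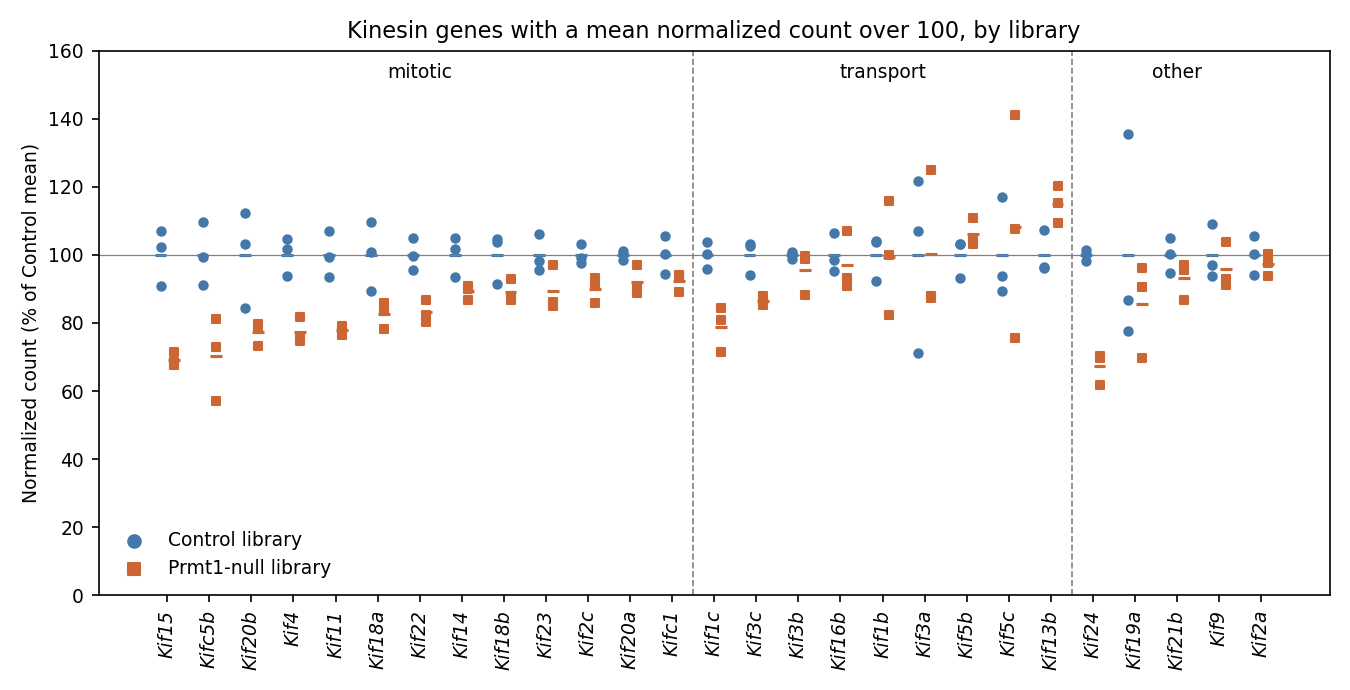
Normalized counts of each kinesin gene with a mean over 100, as a percentage of the gene's Control mean, for the 3 Control (circles) and 3 Prmt1-null (squares) libraries, with horizontal bars for group means. The Prmt1-null mean of each of the 13 mitotic kinesins lies below 100%, down to 69.1% for Kif15, while the transport kinesins lie on both sides and Kif24 stands at 67.3%.

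Kif11 and Kif15 are the motors that push spindle poles apart, Kif11 by sliding antiparallel microtubules and Kif15 by holding the bipolar spindle once it has formed. Kif15 (chr9:122951046-123018733, plus strand) had 5302, 5547 and 4709 normalized counts in Control and 3703, 3552 and 3502 in Prmt1-null iGBs. Each Prmt1-null library was below the lowest Control library, and the log2 fold change was −0.53 ± 0.069 (SE, 95% interval −0.68 to −0.39, adjusted p = 0.00311). In the main fit this was the largest fall among the mitotic kinesins, while with limma-voom that of Kifc5b was larger (−0.5332 against −0.5321). Kif15 kept its call without any one of the 6 libraries. Kif11 (chr19:37376403-37421859, plus strand) had 13999, 12990.4 and 12217 normalized counts in Control and 9978, 10353 and 10219 in Prmt1-null iGBs, again without overlap. It fell by 0.36 on the log2 scale (SE 0.063, 95% interval −0.50 to −0.22, adjusted p = 0.0152). With Control 2 or any one Prmt1-null library left out, the adjusted p of Kif11 ran from 0.0681 to 0.111. The level per length of Kif11 was 3.46 to 3.90 times that of Kif15 in Control and 3.98 to 4.31 times in Prmt1-null iGBs. No 50-base run of the Kif11 exons occurs in Kif15, so the reads of these genes can be told apart.

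Kif4 and Kif22 are chromokinesins, motors that sit on chromosome arms, where Kif4 also acts in chromosome condensation and at the spindle midzone and Kif22 pushes the arms toward the equator. Kif4 (chrX:100625737-100727214, plus strand) had 3356, 3263 and 3008 normalized counts in Control and 2623, 2426 and 2400.1 in Prmt1-null iGBs. The groups did not overlap and the log2 fold change was −0.37 ± 0.071 (SE, adjusted p = 0.0266), leaving 77.4% of the Control level. This call was kept without Control 3 and was lost without any other library, with adjusted p of 0.068 to 0.165. Kif4 is X-linked, and it was still called when the model held the sex of the mice. Kif22 had 1406, 1469 and 1545 normalized counts in Control and 1212, 1183 and 1277 in Prmt1-null iGBs. These did not overlap either, but the log2 fold change of −0.27 ± 0.092 did not pass (adjusted p = 0.2). Exons of Pdzd11 overlap Kif4 on the opposite strand and those of Gm31749 overlap Kif22, and whether the counting used the strand is not given in the sources used here.

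Kif2c, Kif18a and Kif18b set the length of spindle microtubules, Kif2c by removing tubulin at kinetochores and Kif18a by damping the swings of chromosomes at metaphase. Kif18a had 4224, 3895 and 3449.8 normalized counts in Control and 3013, 3218 and 3312 in Prmt1-null iGBs, which did not overlap (log2 fold change −0.28 ± 0.078, adjusted p = 0.109). Exons of Mettl15 overlap it on the opposite strand. Kif2c had 2639, 2753 and 2600.3 in Control and 2482, 2285 and 2422 in Prmt1-null iGBs (−0.15 ± 0.070, adjusted p = 0.359). Kif18b had 2138, 1870.1 and 2123 against 1774, 1799 and 1898, and here the highest Prmt1-null library was above the lowest Control library (−0.16 ± 0.084, adjusted p = 0.425). None of these 3 genes passed the main test, and Kif18a was the one with the largest difference. Kif18a passed with DESeq2 (adjusted p = 0.0307), with no filter on low counts (0.0138) and without Control 3 (0.0213).

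The motors of the midzone and midbody are Kif20a, which brings the chromosomal passenger complex to the midzone, Kif20b, Kif23, the motor of the centralspindlin complex, and Kif14, which binds citron kinase. Kif20b had 4093, 3756 and 3072 normalized counts in Control and 2861, 2903 and 2668 in Prmt1-null iGBs. The Control libraries of Kif20b spread more than those of the other midzone motors, and the difference of −0.37 ± 0.092 on the log2 scale had an adjusted p of 0.0697. It passed with DESeq2 (adjusted p = 0.00633), with no filter on low counts (0.000273) and without Control 3 (0.00419). Kif20a, next to Kif11 in level per length, had 5211, 5343 and 5308 normalized counts in Control and 4691, 4795 and 5125 in Prmt1-null iGBs (log2 fold change −0.12, 95% interval −0.24 to 0.01, adjusted p = 0.404). Exons of Cdc23 overlap Kif20a on the opposite strand. Kif23 had 3703, 4109.8 and 3808 in Control and 3336, 3290.0 and 3760.3 in Prmt1-null iGBs, with 1 Prmt1-null library inside the Control range (−0.16 ± 0.071, adjusted p = 0.329). Kif14 had 2932, 2840.2 and 2609 against 2536, 2426 and 2517, without overlap (−0.16 ± 0.071, adjusted p = 0.322). The differences of Kif20a, Kif23 and Kif14 were thus smaller than that of Kif20b and did not pass.

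Kifc1 is the minus-end motor that focuses spindle poles, and Kifc5b is its close mouse relative, which shares 36.6% of its 50-base exon runs with Kifc1, so the split of reads between the pair is uncertain. Kifc1 had 791, 831 and 744 normalized counts in Control and 740.1, 703 and 741 in Prmt1-null iGBs (−0.12 ± 0.108, adjusted p = 0.705). Kifc5b had 402, 444 and 369 against 329, 231 and 295 (−0.51 ± 0.163, adjusted p = 0.164). Added together, the 2 genes had 1194 ± 81.4 normalized counts (SD, n = 3) in Control and 1013 ± 70.04 in Prmt1-null iGBs. Their sums did not overlap, from 1113 to 1276 in Control and from 935 to 1069 in Prmt1-null iGBs.

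**Figure D4:**
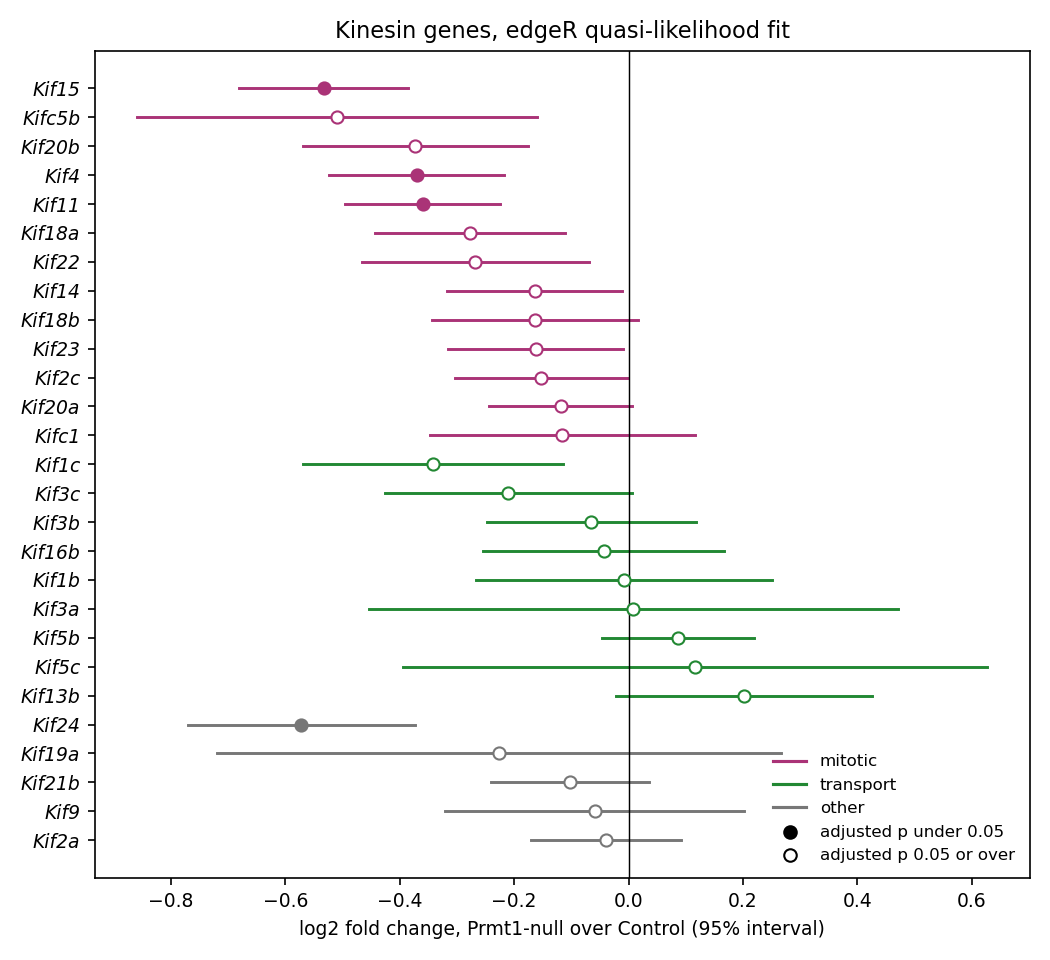
Log2 fold changes of Prmt1-null over Control with 95% intervals from the edgeR quasi-likelihood fit, for kinesin genes with a mean normalized count over 100, coloured by class, with filled points for an adjusted p under 0.05. The filled points are Kif15 (−0.53), Kif4 (−0.37), Kif11 (−0.36) and Kif24 (−0.57), and the transport kinesins spread from −0.34 to 0.20.

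The largest fall among the called kinesins in the main fit was that of Kif24. This centriolar motor takes microtubules apart and restrains the growth of primary cilia, and it was counted outside the mitotic list. Kif24 (chr4:41390745-41464887, minus strand) had 1730.1, 1715 and 1678 normalized counts in Control and 1055, 1189 and 1201 in Prmt1-null iGBs. The Control libraries lay close together and all Prmt1-null libraries were well below them, with a log2 fold change of −0.57 ± 0.092 (SE, 95% interval −0.77 to −0.37, adjusted p = 0.00921). The adjusted p rose to 0.0546 without Control 2, 0.068 without Prmt1-null 1 and 0.0588 without Prmt1-null 2, while the log2 fold change stayed between −0.61 and −0.51. Of the 9 tested genes outside both classes, Kif24 was the 1 called (0.602% of all tested genes were called lower), and 8 of 9 log2 fold changes were below 0 with a median of −0.10, against 50.1% of all tested genes below 0.

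Kif2a, which takes microtubules apart at spindle poles and in resting cells, had the highest level per length of these 9. It had 5698, 6009.7 and 5354 normalized counts in Control and 5339, 5705 and 5557 in Prmt1-null iGBs (log2 fold change −0.04, 95% interval −0.17 to 0.09, adjusted p = 0.831), and exons of Dimt1 overlap it on the opposite strand. Kif21b, a motor of neurons and lymphocytes that slows microtubule growth, had 8112, 7675 and 8502 against 7729, 7864 and 7027, with overlap (−0.10, 95% interval −0.24 to 0.04, adjusted p = 0.531). The ciliary motor Kif9 had 659.7, 587 and 566 against 551, 627 and 561 (−0.06, adjusted p = 0.876). Kif19a, which trims ciliary microtubules, had 173, 193 and 302 against 201, 214 and 155 (−0.23, adjusted p = 0.736). The remaining genes of this remainder had low counts and wide errors, with log2 fold changes of −0.43 for Kif7, −0.43 for Kif26b, 0.19 for Kifc5c-ps and −0.01 for Kif22-ps.

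Of the 13 tested transport kinesins, 0 were called in either direction by edgeR, and 1 had an unadjusted p under 0.05 with a lower level, against 7% of all tested genes. DESeq2 gave no adjusted p to Kif5a, Kif13a, Kifc2 and Kifc3. Of the other transport kinesins it called 1, against 5.42% of the genes to which it gave an adjusted p. By edgeR, the log2 fold changes of the 13 were above 0 for 6 and below 0 for 7, with a median of −0.01. Among the 9 with a mean over 100 they ran from −0.34 to 0.20, and the groups did not overlap for 3 genes, Kif13b as higher and Kif1c and Kif3c as lower, against 9.95% (higher) and 9.92% (lower) of all tested genes and 11.2% and 11.4% of those with a mean over 100. A difference between the mitotic and the transport class as such was not tested, and the values stand side by side.

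Kif5b, the heavy chain of conventional kinesin that carries lysosomes and mitochondria outward, was the most abundant transport kinesin. It had 6199, 6200.2 and 5598 normalized counts in Control and 6251, 6657 and 6196 in Prmt1-null iGBs (log2 fold change 0.09, 95% interval −0.05 to 0.22, adjusted p = 0.598). This interval leaves out falls of the size of those of Kif11 and Kif15. Without Control 3 the log2 fold change of Kif5b was 0.0394. With any 1 library left out, its edgeR adjusted p ran from 0.524 to 0.863. Exons of 2 annotated genes overlap Kif5b on the opposite strand. The other heavy chains were low, Kif5c with 0.12 (adjusted p = 0.876) and the neuronal Kif5a, at 0 in a library of each group, with 0.62 (95% interval −1.96 to 3.21, adjusted p = 0.867). The value of Kif5a ran from 0.0039 without Control 2 to 2.14 without Control 3.

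Kif3a, Kif3b and Kif3c make up the heterotrimeric kinesin that moves vesicles and builds cilia, with Kif3b or Kif3c paired with Kif3a. Kif3b had 1743, 1766 and 1781 normalized counts in Control and 1745, 1758 and 1554 in Prmt1-null iGBs (−0.07, 95% interval −0.25 to 0.12, adjusted p = 0.8). Kif3c had 1069, 1074 and 979.5 against 914, 887 and 898, lower without overlap but not past the test (−0.21, 95% interval −0.43 to 0.01, adjusted p = 0.387), and exons of 2 genes overlap it on the opposite strand. Kif3a varied more between libraries, with 192 to 329 normalized counts in Control and 236 to 338 in Prmt1-null iGBs, and its log2 fold change was 0.01 (adjusted p = 0.992). Per length, Kif3b was 3.37 to 5.84 times as abundant as Kif3a in Control and 3.31 to 4.67 times in Prmt1-null iGBs.

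The log2 fold changes of the motors of endosomes, secretory vesicles and mitochondria lay on both sides of 0. Kif1c, which carries secretory vesicles and integrins, had 1125, 1076 and 1166 normalized counts in Control and 947, 908 and 801 in Prmt1-null iGBs. The groups did not overlap and the log2 fold change was −0.34 ± 0.106, with an adjusted p of 0.149 by edgeR and of 0.0449 by DESeq2. Kif16b, which positions early endosomes, had 1544, 1383 and 1429 against 1352, 1555 and 1318 (−0.04, adjusted p = 0.889). Kif13b, which carries membrane cargo with the scaffold Dlg1, had 853 to 951 in Control and 969 to 1066 in Prmt1-null iGBs and was the 1 kinesin of which all Prmt1-null libraries were higher (0.20 ± 0.104, adjusted p = 0.43). Kif1b, a motor of mitochondria and vesicle precursors, had a log2 fold change of −0.01 (95% interval −0.27 to 0.25). Kif13a, Kifc2 and Kifc3 had means of under 100 normalized counts and log2 fold changes of −0.33, 0.24 and −0.50, none past the test. Opposite-strand genes overlap the exons of Kifc2 and Kifc3, and those of Kif7 and Kif26b above.

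The partners of the mitotic kinesins are the kinases, adaptors and microtubule-binding proteins that act with them on the spindle and midzone. The list also holds Cenpe, itself a mitotic kinesin motor, whose symbol does not begin with Kif. Its groups overlapped (log2 fold change −0.17, adjusted p = 0.455). Of 18 tested partners, 0 were called by edgeR, 2 were called by DESeq2, against 5.42% of its genes, and 7 had an unadjusted p under 0.05 with a lower level, against 7% of all tested genes and 8.89% of those with a mean over 100. The log2 fold changes of 17 were below 0, with a median of −0.14, and their summed level per length ran from 371 to 399 in Control and from 329 to 357 in Prmt1-null iGBs, without overlap. Aurkb, the kinase of the chromosomal passenger complex, had 4017, 3553 and 4035 normalized counts in Control and 3139.8, 3281 and 3177 in Prmt1-null iGBs, without overlap (−0.27 ± 0.068, adjusted p = 0.0728). Tpx2, which nucleates spindle microtubules, had a log2 fold change of −0.20 (adjusted p = 0.113), and the microtubule-binding Hmmr one of −0.22 (adjusted p = 0.209). The 8 proliferation markers (Mki67, Top2a, Ccnb1, Ccnb2, Cdk1, Pcna, Mcm2 and Mcm5) had 0 called genes and a median of −0.10, and their summed level per length ran from 323 to 361 in Control and from 299 to 318 in Prmt1-null iGBs, without overlap. Of these 8, Ccnb2 (−0.26), Top2a (−0.19), Pcna (−0.15), Mki67 (−0.13) and Ccnb1 (−0.08) had log2 fold changes below 0, and Mcm5 (0.12), Mcm2 (0.08) and Cdk1 (0.0052) above 0. The part of this difference in those of the mitotic kinesins was not tested.

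Of the cargo adaptors and regulators of transport kinesins, 19 were tested, 0 were called, and 14 had log2 fold changes above 0, with a median of 0.11. The smallest p were those of Plekhm2 (0.32, adjusted p = 0.322), which links Kif5b to lysosomes, the scaffold Mapk8ip1 (0.50, adjusted p = 0.322) and the lysosomal GTPase Arl8b (0.14, adjusted p = 0.376). Dynein, the motor that walks the other way, and its activator dynactin gave 23 tested genes, 0 called and a median of 0.06, with Nde1 (−0.24, adjusted p = 0.106), Dync1li2 (−0.28, adjusted p = 0.18) and Actr1a (0.18, adjusted p = 0.303) the smallest p. The 13 tested tubulins had 0 called genes and a median of −0.02. Tubg2, a nucleating tubulin, had −0.44 (adjusted p = 0.139), and the beta tubulins Tubb5 and Tubb4b had −0.17 (adjusted p = 0.174) and 0.15 (adjusted p = 0.298). An unadjusted p under 0.05 was reached by 2 cargo genes, both higher, by 3 dynein and dynactin genes (1 higher, 2 lower) and by 3 tubulins (1 higher, 2 lower), against 6.5% of all tested genes as higher and 7% as lower. The summed levels per length did not overlap for the cargo list (125.8 to 126.6 in Control, 130.5 to 136.2 in Prmt1-null iGBs) and the dynein list (618.5 to 638 and 641 to 669), which were higher in Prmt1-null iGBs, nor for the tubulins (1434 to 1462 and 1315 to 1399), which were lower.

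**Figure D5:**
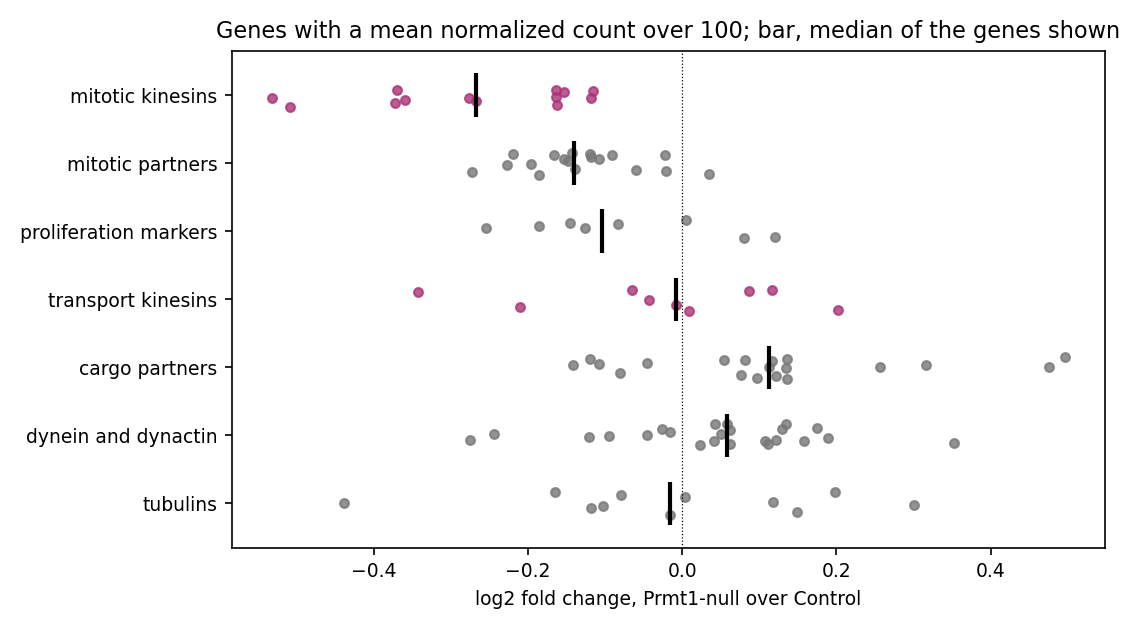
Log2 fold changes of Prmt1-null over Control for the genes of 7 lists with a mean normalized count over 100, each point a gene, with a bar at the median of the points. The 13 mitotic kinesins lie between −0.53 and −0.12, the 9 transport kinesins between −0.34 and 0.20, and the medians of the cargo, dynein and tubulin lists are 0.11, 0.06 and −0.02.

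The labelled cell type was checked against its markers. All 6 B cell markers were tested and 0 called, with summed levels per length of 1700 to 1962 in Control and 1908 to 2021 in Prmt1-null iGBs. Of the 10 fibroblast markers that the 40LB feeders could add, 9 were tested and 0 called, and 8 had log2 fold changes above 0. Their sum was low but without overlap, at 2.12 to 2.71 in Control and 2.82 to 3.55 in Prmt1-null iGBs. Myeloid markers summed to 24.6 to 27.8 and 23.8 to 28.3, with Adgre1 called higher as 1 of 5 (0.73, adjusted p = 0.0319, against 0.58% of all tested genes), and T cell markers to 0.162 to 0.526 and 0.169 to 0.68. Plasma cell markers, of which 0 of 6 were called, summed to 403 to 419 and 433 to 470, higher in Prmt1-null iGBs without overlap. Of these 6, 5 had log2 fold changes above 0, Xbp1 with the smallest p (0.29, adjusted p = 0.0571), and Jchain was below 0 (−0.09). The part of other cells in the kinesin values was not tested.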

How the data were processed

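The authors trimmed reads with Trimmomatic 0.32, aligned them to mm10 (GRCm38) with STAR 2.3.0e, restricted them to primary alignments with no more than 2 locations and counted those on exons of Ensembl genes with featureCounts 1.4.4. What was deposited are raw read counts of each gene in 6 libraries, neither normalized nor filtered. Libraries were rRNA-depleted and stranded; the strand setting of the counting and whether mates were counted singly are not given in the sources used here. Of the genes with 1 to 20 counts, 70.1 to 72.5% had even counts, so a fragment may count as a pair, and a floor in counts then stands for fewer fragments and a higher bound. Groups, sexes and replicate numbers came from the labels.

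The 2 groups were compared with edgeR 4.0.16 in R 4.3.3 (filterByExpr with a minimum count of 10, TMM with factors of 0.985 to 1.01, quasi-likelihood test, Benjamini-Hochberg adjustment over 18268 genes), without 398 genes of chromosome Y, as in the study's methods. The standard error was taken from the fold change and the F statistic. The biological coefficient of variation was 0.154. Replicates differed by far more than counting error, and none was a duplicate. Nothing in the labels beyond the mouse marks separate cultures, so p-values measure the spread between mice. Floors of 3 counts cover counting error only, since the reads carry no molecular identifiers. Levels per length used GENCODE M21 exon lengths. Coordinates are GRCm38. Alternatives were DESeq2 1.42.0, limma-voom (limma 3.58.1), median-of-ratios size factors, no filter, a replicate block, sex as a covariate, chromosome Y kept, no minimum mean and each library left out. Medians over genes with a mean over 100 were added after seeing the data.

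The members and lists were chosen with earlier results of these data known. Values per library are given for Prmt1, tested mitotic kinesins, and other members with an unadjusted p under 0.05 or among the 5 highest of their class per length, and of each partner list the 3 smallest p are named. Ranges for Kif13b and Kif3a and values per library for Aurkb were added after their values had been seen. Methods were tested on simulated data.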

Additional observations from a re-analysis of the deposited data

How the results depend on the processing

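Over 8 alternatives that used all 6 libraries, Kif15, Kif11, Kif4, Kif24 and Prmt1 were called in each, the median log2 fold change of the mitotic kinesins ran from −0.27 to −0.26, and that of the transport kinesins from −0.02 to −0.00. Of these 8, the alternative with no minimum mean reuses the main fit, so its values for these genes could not differ. With DESeq2, 709 genes were called in place of 216, or 5.42% of the 13091 genes with an adjusted p. These held 5 of 13 tested mitotic kinesins (Kif20b and Kif18a added, adjusted p = 0.00633 and 0.0307) and 1 transport kinesin (Kif1c, 0.0449). Also called were 2 of 18 mitotic partners, 1 of 23 dynein and dynactin genes and 1 of 13 tubulins. With no filter on low counts, 675 genes, 5 mitotic kinesins (Kif20b 0.000273 and Kif18a 0.0138 added) and 1 mitotic partner were called. The replicate block added the call of Kif20b (log2 fold change −0.36, adjusted p = 0.0481) and changed no other call of a kinesin, with 151 genes called in all. Replicate numbers do not pair the libraries, which came from different mice: the deviations of same-numbered libraries from their group means correlated by −0.115, 0.0609 and −0.13, and Control 1 correlated best with Prmt1-null 3 (0.203). Leaving out each library in turn gave 31 to 340 called genes, 1 to 5 called mitotic kinesins, 0 to 1 called other kinesins and 0 to 1 mitotic partners. The numbers of genes tested without the filter and with a library left out were not recorded. Their counts of calls therefore have no share over all genes beside them. Kif15 was the 1 mitotic kinesin left without Control 2 or any one Prmt1-null library, and 5 were called without Control 3. The transport median ran from −0.12 (without Prmt1-null 2) to 0.0359 (without Control 1), the mitotic median from −0.30 to −0.20 and that of the other kinesins from −0.32 to −0.05. The median of the mitotic partners ran from −0.18 (without Prmt1-null 3) to −0.09 (without Prmt1-null 1), that of the cargo list from 0.0647 (without Control 1) to 0.14, and that of the tubulins from −0.0722 (without Control 1) to 0.0121 (without Control 3), with a change of sign.

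Of the values of single kinesins under the alternatives, 444 kept direction and side of the threshold, 8 were newly past it, 12 were no longer past it and 26 changed sign, all of uncalled genes. The 444 include the values with no minimum mean, which are those of the main fit. DESeq2 gave no adjusted p to Kif7, Kif26b, Kifc5c-ps, Kif22-ps, Kifc3, Kif13a, Kif5a and Kifc2. Their DESeq2 values were counted among the 444 by direction alone. Kif22-ps changed sign with limma-voom (0.0208), no filter (0.00317), the replicate block (0.0583) and sex as a covariate (0.0299), and Kif26b with the replicate block (0.10). With 1 library left out, log2 fold changes that changed sign ran from −0.37 to 0.0551 for Kif19a, −0.0806 to 0.00156 for Kif2a, −0.11 to 0.0103 for Kif9, −0.98 to 1.25 for Kif26b, −0.44 to 0.64 for Kifc5c-ps, −0.28 to 0.37 for Kif22-ps, −0.66 to 0.0359 for Kif13a, −0.12 to 0.32 for Kif5c, −0.12 to 0.00589 for Kif16b, −0.26 to 0.85 for Kifc2, −0.13 to 0.11 for Kif1b and −0.19 to 0.18 for Kif3a. Without a change of sign, Kifc3 ran from −0.68 to −0.17 (without Control 2), Kif7 from −0.59 to −0.19 (without Control 1) and Kif5b from 0.0394 (without Control 3) to 0.11. Likewise, Kif3b ran from −0.0912 to −0.0105, Kif21b from −0.14 to −0.0549 and Kifc1 from −0.16 to −0.076. The causes were not tested.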
